A study of Mus musculus with 2 samples.

Results

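The genes described here are 34 interferon-responsive genes of the mouse, 17 GTPase genes, 12 genes of class I antigen presentation and 5 regulators, out of 55357 genes in the count matrices. They were listed by symbol, and all 34 were found in both libraries. The GTPases are 9 guanylate-binding protein genes (Gbp2 to Gbp10), 7 immunity-related GTPase genes (Igtp, Irgm1, Irgm2, Iigp1, Tgtp1, Tgtp2 and Ifi47) and the giant GTPase gene Gvin1. The presentation genes are 5 of the immunoproteasome (Psmb8, Psmb9, Psmb10, Psme1, Psme2), 3 of peptide transport and loading (Tap1, Tap2, Tapbp) and 4 class I genes (B2m, H2-K1, H2-D1, H2-T23). The regulators are Irf1, Irf8, Nlrc5, Socs1 and Socs3.

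Single-cell RNA was measured in cells from the hearts of wild-type mice 7 days after myocardial infarction, the death of heart muscle that follows a blocked artery. The mice of 1 group were injected with anti-PD1, an antibody against PD1, an inhibitory receptor of T cells, and those of the other with anti-IgG (spelled Anti-lgG in the labels), the comparison antibody. Strain, sex, age, antibody dose and the number of hearts in a library are not given in the labels. Each group is 1 library, so no difference below has a replicate check, no p-value is given, and all intervals are 95% intervals that cover counting error alone.

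Interferons act through receptors that switch on STAT and IRF transcription factors. The guanylate-binding and immunity-related GTPases that they induce gather on the membranes of vacuoles that hold pathogens and damage them. The same signal exchanges subunits of the proteasome for the immunoproteasome, which cuts proteins into peptides. The transporter made of TAP1 and TAP2 carries these peptides into the endoplasmic reticulum, where tapasin (Tapbp) helps to load them on class I heavy chains paired with beta-2-microglobulin (B2m).

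Many of the GTPase genes stand in clusters. In GENCODE M21 on GRCm38, Gbp2, Gbp3, Gbp5 and Gbp7 lie within chr3:142493978-142638008, and Gbp4, Gbp6, Gbp8, Gbp9 and Gbp10 within chr5:105014150-105293698. Irgm1, Tgtp1, Tgtp2 and Ifi47 lie within chr11:48861968-49096974, and Igtp and Irgm2 within chr11:58199556-58222782. Iigp1 and Gvin1 lie on other chromosomes, as do B2m, Psmb10 and most regulators. Psmb8 and Psmb9 lie within chr17:34181987-34201454 and H2-K1, H2-D1 and H2-T23 within chr17:33996017-36032855, both in the major histocompatibility complex. The start sites of Psmb9 and Tap1, which are read in opposite directions, are 226 bases apart in RefSeq.

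Promoter windows of RefSeq on GRCm38.p6, from 250 bases before to 50 bases after a start site, matched 25 of the 34 genes by symbol, in 30 windows; Gbp4, Gbp6, Gbp8, Gbp9, Gbp10, Iigp1, Gvin1, Tap2 and Nlrc5 had none. They were searched on both strands for 2 letter patterns, which do not overlap each other in the stretches printed. The first, a pair of GAAA repeats with any 2 bases between them, is the core of the interferon-stimulated response element (ISRE), to which IRF and ISGF3 complexes bind. The other, TTCNNNGAA, is the gamma-activated site (GAS), an element of interferon gamma-responsive promoters. The ISRE pattern was found in 9 of 11 GTPase windows, in 3 of 13 presentation windows and in 3.44% of all 32851 windows. The GAS pattern was found in 6 of 11 GTPase windows, in 1 of 13 presentation windows and in 8.3% of all windows. In Igtp, Irgm2, Tgtp1 and Tgtp2 a GAS pattern stood 2 bases before an ISRE pattern, an arrangement found in 5 of the 32851 windows. The 120 bases upstream of the start are printed for these 4 genes, for Gbp7, which holds both patterns apart from each other, and for Ifi47, which gave the most UMIs of the GTPases and holds neither pattern in its window. They are written 5′ to 3′ on the gene's strand, and capitals mark ISRE and GAS matches.
Igtp (chr11:58199436-58199555, plus strand): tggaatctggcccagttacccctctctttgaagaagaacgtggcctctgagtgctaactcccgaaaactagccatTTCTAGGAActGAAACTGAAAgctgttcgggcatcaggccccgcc
Irgm2 (chr11:58214857-58214976, plus strand): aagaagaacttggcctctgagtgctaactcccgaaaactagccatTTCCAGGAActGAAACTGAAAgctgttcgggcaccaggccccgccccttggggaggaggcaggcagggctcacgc
Tgtp1 (chr11:48992247-48992366, minus strand): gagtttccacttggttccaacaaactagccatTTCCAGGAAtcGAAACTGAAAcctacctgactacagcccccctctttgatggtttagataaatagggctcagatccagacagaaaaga
Tgtp2 (chr11:49064213-49064332, minus strand): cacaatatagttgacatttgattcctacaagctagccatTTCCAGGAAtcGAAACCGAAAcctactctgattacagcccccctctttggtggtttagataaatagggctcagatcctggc
Gbp7 (chr3:142530216-142530335, plus strand): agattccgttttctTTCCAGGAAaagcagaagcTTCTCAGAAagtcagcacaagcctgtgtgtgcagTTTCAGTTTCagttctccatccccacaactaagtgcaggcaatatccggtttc
Ifi47 (chr11:49076467-49076586, plus strand): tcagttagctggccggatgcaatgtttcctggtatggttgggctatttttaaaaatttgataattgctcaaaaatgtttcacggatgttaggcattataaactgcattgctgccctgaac
The printed stretches of Igtp and Irgm2 share the same GAS and ISRE arrangement, and so do those of Tgtp1 and Tgtp2. A letter match describes the sequence and does not show that a factor binds there. Only exact patterns were searched, so a window without a match is not shown to lack such an element.

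The anti-IgG library kept 4309 of 4380 barcodes and the anti-PD1 library 5835 of 6026, with 22806806 and 29046341 UMIs before filtering. A UMI, or unique molecular identifier, is a random tag by which RNA molecules are counted. CD3 cells, which had a UMI of Cd3d, Cd3e or Cd3g and too few markers of any other lineage, numbered 3748 and 4985, with 17627949 and 22172522 UMIs and medians of 3957 and 3738 UMIs per cell. Gates free of Cd3 UMIs held 44 and 104 macrophage-like, 41 and 115 B-like, 52 and 36 endothelial-like, 20 and 20 fibroblast-like, 11 and 21 plasmacytoid dendritic-like and 3 and 6 conventional dendritic-like cells, although the labels name T cells and the design text states a sort. The libraries shared 46 barcodes. Levels are given as CPM, the UMIs of a gene or list scaled to a total of 1000000 UMIs in the pooled cells. Within CD3 cells the summed markers of other lineages stood at 9.02 and 13.9 CPM for the 10 macrophage markers, 78.1 and 66.4 for the 10 endothelial, 20.1 and 17.4 for the 10 B, 108 and 95.2 for the 10 plasmacytoid dendritic, 7.83 and 17.7 for the 10 conventional dendritic, 6.64 and 4.65 for the 10 fibroblast and 5.62 and 7.62 for the 7 cardiomyocyte markers (anti-IgG first). At 0 in CD3 cells of the anti-IgG library were Ms4a1, Pax5, Flt3, Clec9a, Ccl22, Pdgfra and Mmp2, and of the anti-PD1 library Mrc1, Emcn, Cd300c, Clec9a, Ccl22, Pdgfra and Mmp2. The part of these transcripts in the ratios below was not tested.

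The first question was whether the GTPases and the presentation genes differed alike between the libraries in CD3 cells, and they did not. Levels here are CPM pooled across the CD3 cells of a library. The 17 GTPases together stood at 905 CPM in the anti-IgG library and 588 in the anti-PD1 library, a ratio of 0.649 (0.634 to 0.664). The 12 presentation genes together stood at 10932 and 10660 CPM, a ratio of 0.975 (0.969 to 0.981). Of the 17 GTPases, 11 were lower in the anti-PD1 library by at least 1.5 times, against 9.87% of the 11900 genes with at least 50 summed UMIs. No GTPase, presentation gene or regulator was higher by at least 1.5 times (6.29% of all measured genes were), and no presentation gene passed that fold in either direction. The median log2 ratio was -0.70 for the GTPases, -0.10 for the presentation genes, 0.11 for the regulators and -0.11 for all measured genes, so the median presentation gene stood at the level of the median gene.

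**Figure D1:**
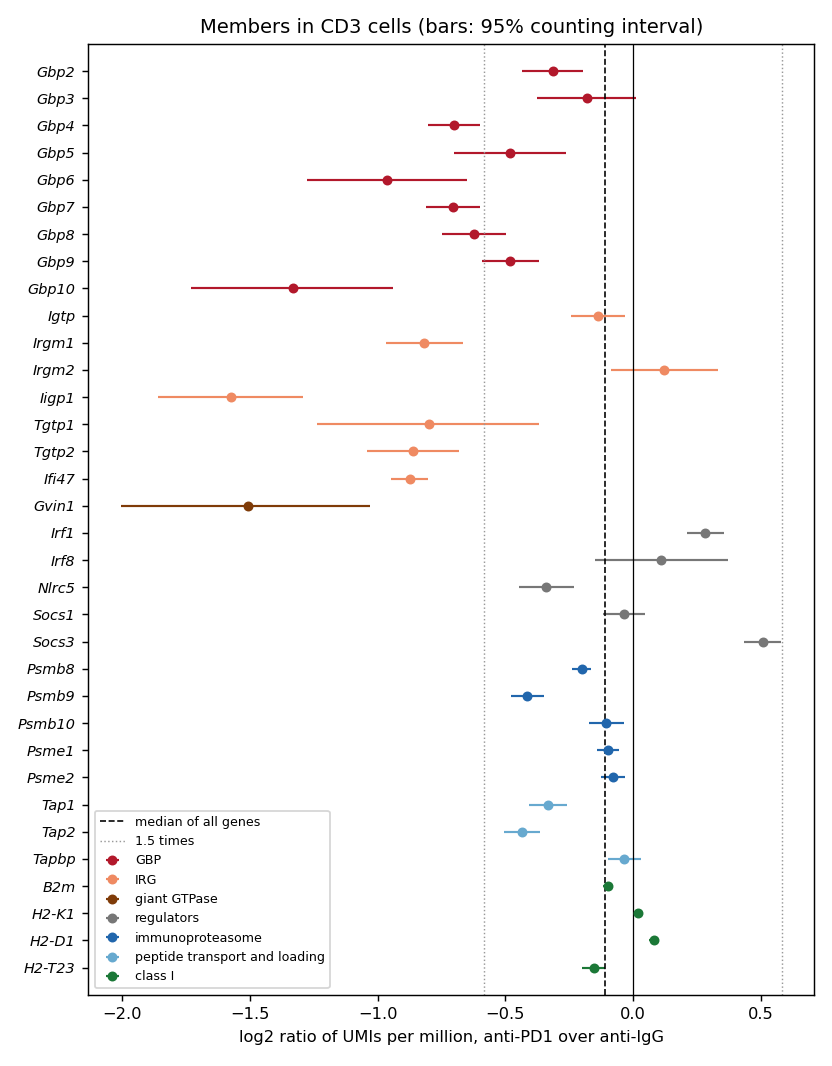
Log2 ratio of CPM, anti-PD1 over anti-IgG, in CD3 cells for each of the 34 genes, with 95% counting intervals. Points are coloured by role, the dashed line marks the median of all genes (-0.11) and the dotted lines mark 1.5 times; 11 GTPases lie left of the lower dotted line, and Irgm2 is the GTPase right of 0.

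The guanylate-binding proteins were lower in the anti-PD1 library as a family, with all 9 ratios below 1 and 5 of them past 1.5 times. Of all measured genes 9.87% were that low, and the median gene was itself below 1, at a log2 ratio of -0.11. Gbp4, the family member with the most UMIs, had 1768 anti-IgG and 1368 anti-PD1 UMIs, 100.3 and 61.7 CPM, a ratio of 0.615 (0.573 to 0.661). Gbp7 had 1679 and 1296 UMIs, 95.2 and 58.5 CPM, a ratio of 0.614 (0.570 to 0.660). Gbp8 had 1177 and 962 UMIs, 66.8 and 43.4 CPM, a ratio of 0.650 (0.596 to 0.708). These 3 genes differed by nearly the same factor. Gbp6, with 220 and 142 UMIs (12.5 and 6.4 CPM), had a ratio of 0.513 (0.413 to 0.637). Gbp10, with 164 and 82 UMIs (9.30 and 3.70 CPM), had the lowest ratio of the family, 0.398 (0.301 to 0.521). At the other end of the family stood Gbp3, with 413 and 458 UMIs, 23.4 and 20.7 CPM and a ratio of 0.882 (0.770 to 1.01) whose interval includes 1. Gbp2 (0.804), Gbp5 (0.717) and Gbp9 (0.716) lay between, outside the 1.5-fold. The members of the chromosome 3 cluster had ratios from 0.614 to 0.882 and those of the chromosome 5 cluster from 0.398 to 0.716.

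Of the 7 immunity-related GTPases, 5 were lower in the anti-PD1 library by at least 1.5 times, while Igtp and Irgm2 were not. Ifi47, also called Irg47, had 3926 anti-IgG and 2692 anti-PD1 UMIs, 223 and 121 CPM, a ratio of 0.545 (0.519 to 0.573). Irgm1, a regulatory member that guards the cell's own membranes, had 870 and 621 UMIs, 49.4 and 28.0 CPM, a ratio of 0.567 (0.511 to 0.630). Tgtp2 had 620 and 429 UMIs, 35.2 and 19.3 CPM, a ratio of 0.550 (0.485 to 0.623). These 3 genes were thus lower to a like degree. Tgtp1, with 108 and 78 UMIs (6.13 and 3.52 CPM), stood at 0.574 (0.424 to 0.775). Iigp1, which encodes the effector GTPase Irga6, had 355 and 150 UMIs, 20.1 and 6.77 CPM, and the lowest ratio of all members, 0.336 (0.276 to 0.408). The other 2 regulatory members stood apart from Irgm1. Igtp (Irgm3) had 1338 and 1530 UMIs, 75.9 and 69.0 CPM, a ratio of 0.909 (0.844 to 0.979), close to the median gene. Irgm2 had 327 and 448 UMIs, 18.6 and 20.2 CPM, and was the only GTPase with a ratio above 1, 1.09 (0.942 to 1.26). Igtp and Irgm2 hold the GAS and ISRE arrangement printed above, as do Tgtp1 and Tgtp2, which were lower by over 1.5 times.

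The giant GTPase gene Gvin1 had 120 and 53 UMIs, 6.81 and 2.39 CPM, a ratio of 0.351 (0.249 to 0.489). Its UMIs lay in 117 anti-IgG and 51 anti-PD1 cells, about 1 in each. Several of these ratios are uncertain, because a read can match a near copy of the gene. Of all 90-base stretches of their GENCODE transcripts, 98.0% of those of Gvin1 also occur in another gene, mostly Gm4070. The share was 78.6% for Tgtp2 and 74.8% for Tgtp1, which are copies of each other, 75.2% for Gbp10 and 65.6% for Gbp6, both mostly shared with Gm43302, and 10.5% for Gbp7. It was 6.13% or less for the other GTPases, Ifi47 and Irgm1 among them. In GENCODE the spans of Gbp4, Gbp8 and Gbp9 overlap on the same strand, as do those of Igtp and Irgm2. The part of reads from such overlaps in the ratios was not tested.

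Per cell, GTPase transcripts were seen in fewer anti-PD1 cells. CD3 cells were thinned at random to 1000 UMIs each, and the shallower ones (34 in the anti-IgG and 52 in the anti-PD1 library) were set aside. No GTPase UMI was then left in 50.1% (48.5 to 51.8) of cells in the anti-IgG library against 63.0% (61.7 to 64.4) in the anti-PD1 library, and 3 or more in 8.64% (7.76 to 9.59) against 4.09% (3.56 to 4.69). Unthinned, 13.2% and 26.2% had none. For Ifi47 the share of thinned cells with a UMI was 17.6% (16.4 to 18.9) against 9.97% (9.15 to 10.8), and 51.9% against 32.5% unthinned. In thinned B-like cells Ifi47 was seen in 1 of 41 and 4 of 114 cells, 2.44% (0.0617 to 12.9) and 3.51% (0.964 to 8.74). Median depths of these cells before thinning were 2558 and 2260 UMIs. The part of free RNA in these shares, or in those of CD3 cells, was not tested.

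The regulators differed in both directions, and none by 1.5 times. Socs3, an inhibitor of cytokine signalling induced by STAT3, had 2353 anti-IgG and 4209 anti-PD1 UMIs, 133 and 190 CPM, a ratio of 1.42 (1.35 to 1.5). Irf1, the transcription factor that carries much of the interferon gamma response, had 2547 and 3896 UMIs, 144 and 176 CPM, a ratio of 1.22 (1.16 to 1.28). Both were thus higher in the library in which the GTPases were lower. Nlrc5, the transactivator of class I genes, had 1378 and 1370 UMIs, 78.2 and 61.8 CPM, a ratio of 0.790 (0.733 to 0.852). Socs1, an inhibitor of interferon signalling, stood at 0.976 (0.922 to 1.03) and Irf8, a factor of myeloid and B cells, at 1.08 (0.902 to 1.29). Beside these, 8 early response genes (Fos, Fosb, Jun, Junb, Egr1, Ier2, Atf3 and Nr4a1) summed to 4278 and 5638 CPM in CD3 cells, a ratio of 1.32 (1.31 to 1.33), and 5 heat shock genes to 2346 and 2315. That list was added after the Socs3 and Irf1 values had been seen, and the part of such a response in them was not tested.

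The immunoproteasome genes lay near the median gene, except that Psmb8 was slightly low and Psmb9 lower than the rest. Psmb8, which encodes the chymotrypsin-like subunit, had 10935 and 11964 UMIs, 620 and 540 CPM, a ratio of 0.870 (0.848 to 0.893). Psmb9, the caspase-like position's subunit, had 3858 and 3642 UMIs, 219 and 164 CPM, a ratio of 0.751 (0.717 to 0.785). Psme2, part of the proteasome activator PA28, had 6513 and 7765 UMIs, 369 and 350 CPM, the highest ratio of the group, 0.948 (0.917 to 0.980); 20.2% of its stretches also occur in Psme2b. Psme1 (0.934) and Psmb10 (0.930) stood between. The constitutive subunits that the inducible ones replace were not lower: Psmb5 stood at 0.981 (0.926 to 1.04), Psmb6 at 1.07 (1.02 to 1.13) and Psmb7 at 1.00 (0.928 to 1.08).

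Both chains of the peptide transporter were lower in the anti-PD1 library, but by less than 1.5 times. Tap2 had 3343 and 3109 UMIs, 190 and 140 CPM, a ratio of 0.739 (0.704 to 0.777). Tap1, which lies beside Psmb9, had 2993 and 2988 UMIs, 170 and 135 CPM, a ratio of 0.794 (0.754 to 0.835). Tapbp, the loading factor, had 3585 and 4404 UMIs, 203 and 199 CPM, a ratio of 0.977 (0.934 to 1.02).

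The class I genes differed least between the libraries, with the classical heavy chains level or slightly higher and B2m and H2-T23 slightly lower. H2-K1, a classical heavy chain, had 55122 and 70308 UMIs, 3127 and 3171 CPM, a ratio of 1.01 (1.00 to 1.03). H2-D1, the other classical heavy chain listed, had 48520 and 64542 UMIs, 2752 and 2911 CPM, a ratio of 1.06 (1.05 to 1.07). B2m, their shared light chain, had 39826 and 46809 UMIs, 2259 and 2111 CPM, a ratio of 0.934 (0.922 to 0.947). H2-T23, which encodes the non-classical Qa-1 that presents to NKG2A receptors, had 7481 and 8462 UMIs, 424 and 382 CPM, the lowest ratio of the 4, 0.899 (0.872 to 0.928). As sums, the immunoproteasome stood at 0.892 (0.879 to 0.906), transport and loading at 0.842 (0.819 to 0.865) and class I at 1.00 (0.995 to 1.01). Against the median gene, H2-K1 and H2-D1 were thus slightly high, B2m level, Psmb8 and H2-T23 slightly low, and Psmb9, Tap1 and Tap2 low.

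Other genes of the pathway differed in both directions. They came from a list of 52, of which 48 were found and 42 had at least 50 UMIs. Of the 42, 6 were lower and 5 higher by at least 1.5 times, against 9.87% and 6.29% of all measured genes. Below 1 stood 23 of the 42, while 16 had an interval below 1 and 13 one above 1. The median log2 ratio was -0.04, against -0.11 for all measured genes. Of the 5 higher genes, Ifngr2, a receptor chain gene for interferon gamma, stood at 2.23 (2.05 to 2.44), the type I receptor chain gene Ifnar1 at 1.61 (1.5 to 1.72) and Stat3 at 1.65 (1.57 to 1.73). Ifng, the ligand gene, stood at 0.971 (0.896 to 1.05). The 6 lower genes were the GTPase genes Gm12250 (0.396, 0.344 to 0.454; it encodes Irgb10), 9930111J21Rik2 (0.424, 0.391 to 0.461), Mx1 (0.570, 0.484 to 0.672) and Mx2 (0.624, 0.472 to 0.823), the class I relative H2-T24 (0.465, 0.395 to 0.547), and Ciita, the class II transactivator, with 49 and 25 UMIs (0.406, 0.240 to 0.670). The other 2 higher genes were the chemokine gene Cxcl10, with 225 and 831 UMIs (2.94, 2.53 to 3.42), and the class II invariant chain gene Cd74, with 550 and 1319 UMIs (1.91, 1.73 to 2.11), which macrophages and B cells express strongly and whose source within CD3 cells was not tested. The Qa-2 gene H2-Q7 stood at 1.02 (0.999 to 1.05).

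The next question was whether the difference held within kinds of T cells. CD3 cells were split by markers into NK receptor, type 17, Treg (Foxp3), CD8 effector, CD8 naive, CD4 effector and CD4 naive gates and other CD3 cells. Their shares of CD3 cells differed between the libraries, from 9.74% to 15.1% for type 17 and from 16.5% to 8.69% for CD4 effector cells. In all 8 gates the summed GTPases were lower in the anti-PD1 library, with ratios from 0.592 (0.565 to 0.621) in other CD3 cells to 0.763 (0.707 to 0.824) in CD4 naive cells. The summed presentation genes stood between 0.953 (0.941 to 0.964) in other CD3 cells and 1.04 (1.02 to 1.06) in type 17 cells.

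**Figure D2:**
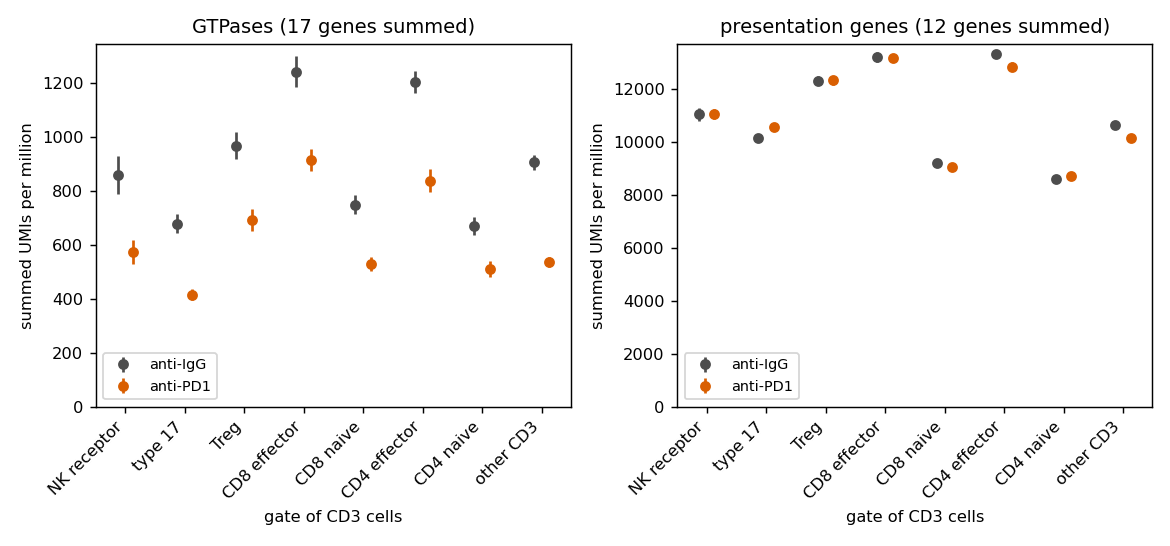
Summed CPM (UMIs scaled to 1000000) of the 17 GTPases (left) and 12 presentation genes (right) in each gate of CD3 cells, with exact 95% Poisson intervals; dark points are the anti-IgG and orange points the anti-PD1 library. The orange GTPase point is below the dark one in all 8 gates, while the presentation points lie together.

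Of all genes measured, those lower by at least 1.5 times made up 9.57% in NK receptor, 8.23% in type 17, 9.5% in Treg, 6.84% in CD8 effector, 8.31% in CD8 naive, 9.72% in CD4 effector, 8.48% in CD4 naive and 11.1% in other CD3 cells. Those higher by that fold made up 9.46%, 6.83%, 5.11%, 7.03%, 6.15%, 5.81%, 5.74% and 5.55% in the same order. Of the GTPases with at least 50 UMIs, 3 of 8 were that low in NK receptor, 9 of 13 in type 17, 6 of 12 in Treg, 5 of 14 in CD8 effector, 3 of 12 in CD8 naive, 5 of 14 in CD4 effector, 4 of 12 in CD4 naive and 13 of 16 in other CD3 cells, so their share was above that of all genes in each gate.

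Ifi47 was the one member lower by at least 1.5 times in all 8 gates, with ratios from 0.508 in other CD3 to 0.652 in CD8 effector cells, and it stood at 318 and 207 CPM in CD8 effector cells and at 129 and 67.3 in type 17 cells, its highest and lowest gates in both libraries. Gbp4, Gbp7 and Gbp8 were below 1 in all 8 gates and past 1.5 times in 5 each. Gbp4 was lowest in Treg cells (0.454) and Gbp7 in CD8 naive cells (0.514). Irgm1 was below 1 in all 8 gates and past 1.5 times in 4, from 0.468 in other CD3 to 0.948 in CD4 naive cells. Iigp1 passed 1.5 times in all 3 gates where it had 50 UMIs, from 0.261 in other CD3 to 0.568 in CD4 effector cells.

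Irgm2 went in both directions. In type 17 cells it had 52 anti-IgG and 41 anti-PD1 UMIs, 25.3 and 10.5 CPM, a ratio of 0.416 (0.269 to 0.638). In CD4 naive cells it had 49 and 87 UMIs, 22.5 and 36.3 CPM, a ratio of 1.61 (1.12 to 2.34). In the other 5 gates with at least 50 UMIs its ratio was above 1 and its interval included 1.

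Among the regulators, Socs3 was above 1 in all 8 gates and past 1.5 times in 4, led by NK receptor cells, with 50 and 289 UMIs (73.8 and 244 CPM) and a ratio of 3.30 (2.44 to 4.56). Irf1 stood at 1.75 (1.35 to 2.30) in NK receptor cells and at 0.945 (0.836 to 1.07) in CD8 naive cells. Tap1, Tap2, Psmb9 and B2m were below 1 in all 8 gates, the first 3 reaching 0.743, 0.656 and 0.631 in their lowest gates. H2-K1 and H2-D1 had their highest ratios in type 17 cells, 1.15 and 1.11.

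**Figure D3:**
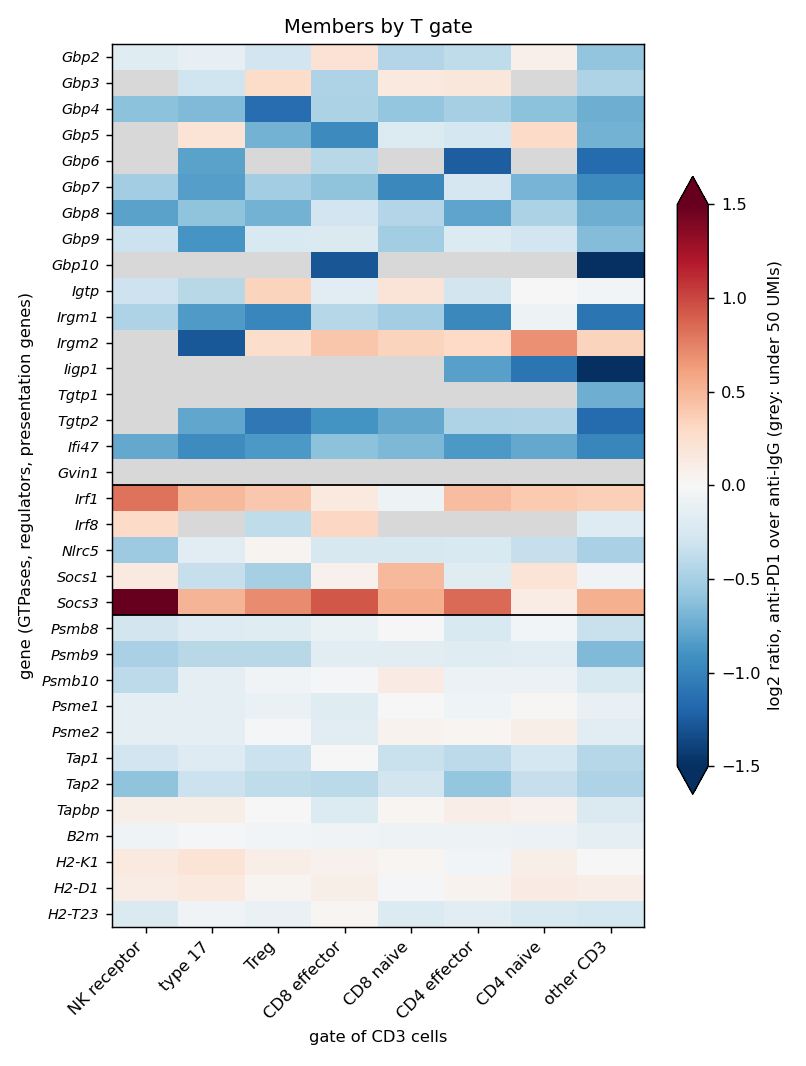
Log2 ratio, anti-PD1 over anti-IgG, for each gene (rows, with lines between GTPases, regulators and presentation genes) in each gate of CD3 cells (columns); blue is lower and red higher in the anti-PD1 library, and grey marks fewer than 50 summed UMIs. Ifi47 is blue in all 8 gates, Irgm2 is blue in type 17 and red in CD4 naive cells, and the class I rows at the bottom are pale.

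The levels themselves differed more between gates for the GTPases than for the presentation genes. The highest gate exceeded the lowest by a median of 2.46 times in the anti-IgG and 3.20 times in the anti-PD1 library for the 17 GTPases, and by 1.71 and 1.58 times for the 12 presentation genes; many GTPases have few UMIs, which widens their range. Of the 17 GTPases, 7 were highest in CD4 effector and 5 in CD8 effector cells of the anti-IgG library, and 2 and 10 in the anti-PD1 library. Of the 12 presentation genes, 8 were highest in CD8 effector cells in each library. The 6 that were so in both were Psmb8, Psmb9, Psmb10, Psme1, B2m and H2-T23. In CD4 naive cells 9 were lowest in the anti-IgG and 7 in the anti-PD1 library. The summed GTPases stood at 1241 and 914 CPM in CD8 effector and at 1203 and 836 in CD4 effector cells, against 669 and 510 in CD4 naive and 677 and 414 in type 17 cells. In each library the intervals of the CD8 and CD4 effector gates overlapped. Gbp3, Gbp5 and Gbp7 departed from this order and were highest in Treg cells in both libraries, Gbp7 at 164 and 114 CPM. Irf8 was highest in NK receptor cells, at 56.1 and 68.3 CPM.

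The GTPases also varied with the type I interferon genes of the same cells. CD3 cells thinned to 1000 UMIs were binned by their UMIs of 13 type I interferon response genes (Ifit1, Ifit2, Ifit3, Ifit3b, Rsad2, Oasl1, Oasl2, Usp18, Cmpk2, Mx1, Rtp4, Ifi44 and Oas1a), none of them a member. These bins are ranges of a score and no cell types. From cells with 0 to cells with 2 or more such UMIs, the summed GTPases stood at 711 and 3083 CPM in the anti-IgG library, 4.33 times as high, and at 488 and 2390 in the anti-PD1 library, 4.90 times as high. The immunoproteasome was 1.84 and 2.09 times, transport and loading 2.07 and 2.08 times and class I 1.35 and 1.42 times as high. Without thinning the GTPase values were 2.46 and 2.51 times. A cell with 0 such UMIs at this depth may still hold the transcripts.

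**Figure D4:**
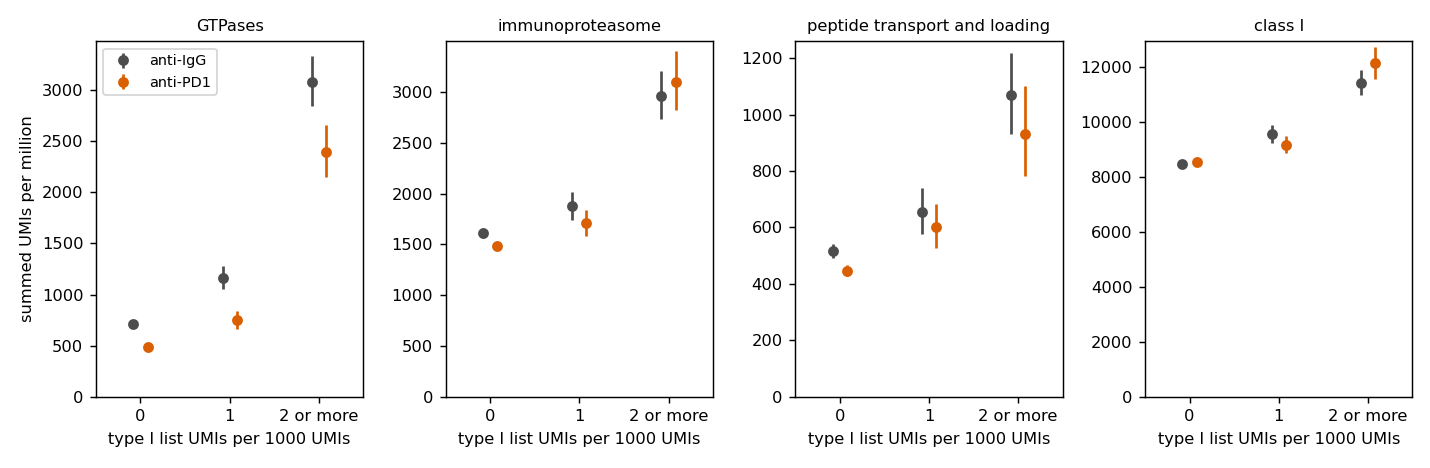
Summed CPM (UMIs scaled to 1000000; y axis, separate scale in each panel, from 0) of the GTPases, immunoproteasome, transport and loading, and class I genes in CD3 cells thinned to 1000 UMIs, by the number of UMIs of the 13 type I interferon genes (x axis), with exact 95% Poisson intervals; dark is anti-IgG, orange anti-PD1. The GTPases go from 711 to 3083 and from 488 to 2390 between the outer bins.

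Single members followed the bins unequally. With cells thinned, Iigp1 was 12.4 and 17.7 times as high in the upper as in the lower bin (anti-IgG first). Its UMIs lay in only 69 and 30 thinned cells. Irgm1 was 7.35 and 7.34 times as high, Gbp2 5.22 and 6.50 times and Gbp8 2.60 and 1.93 times. H2-T23 was 2.18 and 2.46 times as high, H2-D1 1.31 and 1.29 times and Socs3 0.820 and 0.971 times. Without thinning Iigp1 was 7.15 and 4.48 times as high, with the larger fold then in the anti-IgG library. Irgm1 was then 3.26 times as high in both libraries, Gbp2 2.51 and 3.03 times and Gbp8 1.64 and 1.56 times. These single-gene folds have no intervals. Within the lower bin of thinned cells, where no type I UMI was seen, the summed GTPases had a ratio of 0.686 (0.646 to 0.728) between the libraries. In the upper bin it was 0.775 (0.678 to 0.885). Class I stood at 1.01 (0.996 to 1.03) in the lower bin. The 13 type I genes were themselves lower in the anti-PD1 library, with a median log2 ratio of -0.83. By at least 1.5 times 10 of 13 were, against 9.87% of all measured genes. With cells of 3 or more type I UMIs left out, the summed GTPases had a ratio of 0.708, Iigp1 of 0.547 and Igtp of 1.07.

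The last comparison set the other cell types against CD3 cells of the same library, with 2 times in both libraries as the fold. In all other gates but the endothelial-like one the summed GTPases were lower than in CD3 cells. The sum stood at 250 and 257 CPM in macrophage-like cells, 0.276 (0.214 to 0.352) and 0.438 (0.369 to 0.517) of the CD3 level. In B-like cells it was 136 and 173, or 0.150 (0.0891 to 0.238) and 0.295 (0.221 to 0.386), and in fibroblast-like cells 156 and 134, or 0.172 (0.118 to 0.243) and 0.228 (0.158 to 0.318). In plasmacytoid dendritic-like cells it was 533 and 312, or 0.589 (0.419 to 0.805) and 0.530 (0.377 to 0.726). The guanylate-binding genes stood there at 0.349 and 0.0757, with 12 and 3 UMIs. The immunity-related ones stood at 0.863 (0.568 to 1.26) and 1.07 (0.750 to 1.49). The 3 and 6 conventional dendritic-like cells had 9 and 2 GTPase UMIs, or 0.293 (0.134 to 0.557) and 0.0601 (0.00728 to 0.217). Endothelial-like cells were at or above the CD3 level, at 923 and 835 CPM, 1.02 (0.913 to 1.14) and 1.42 (1.2 to 1.67) times. The families differed there. The guanylate-binding genes stood at 1.31 (1.14 to 1.49) and 1.79 (1.45 to 2.18) times. The immunity-related ones stood at 0.681 (0.557 to 0.824) and 0.981 (0.718 to 1.31) times. At least 2 times lower were 6 GTPases in macrophage-like cells (11.7% of all measured genes were), 9 in B-like (5.48%), 3 in endothelial-like (9.22%) and 6 in fibroblast-like cells (13.8%). With cells thinned to 1000 UMIs these numbered 2 in macrophage-like and 2 in B-like cells, and the fibroblast-like gate then held too few cells. Ifi47 and Igtp were among the unthinned genes in all 4 types. Not all GTPases were low: in macrophage-like cells Gbp3 had 7 and 25 UMIs, 1.13 (0.453 to 2.35) and 2.19 (1.40 to 3.28) times the CD3 level. Gbp5 stood there at 1.10 (0.400 to 2.41) and 0.977 (0.418 to 1.95) times, and Irgm1 at 1.15 (0.642 to 1.91) and 0.841 (0.445 to 1.45) times. Gbp3 in B-like cells, with 3 and 13 UMIs, stood at 0.968 (0.199 to 2.85) and 2.06 (1.09 to 3.55) times. Ifi47 had 9 and 28 UMIs in macrophage-like cells, 1 and 8 in B-like, 7 and 9 in endothelial-like and 3 and 2 in fibroblast-like cells. In plasmacytoid dendritic-like cells, too few to be counted, Ifi47 was not rare: it had 19 and 29 UMIs, in 8 of 11 and 13 of 21 cells. All immunity-related GTPases together had 27 and 36 UMIs there.

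**Figure D5:**
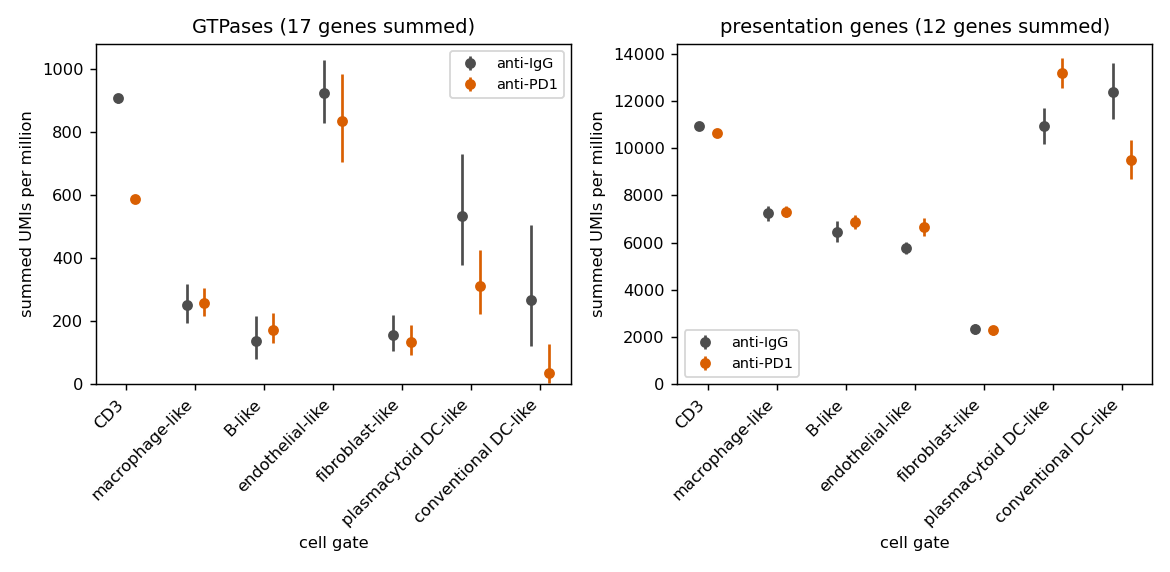
Summed CPM (UMIs scaled to 1000000) of the 17 GTPases (left) and 12 presentation genes (right) in CD3 cells and in 6 gates without Cd3 UMIs, with exact 95% Poisson intervals; dark is anti-IgG, orange anti-PD1. Endothelial-like cells hold GTPases at 923 and 835, near or above CD3 cells, while their presentation genes are below, and fibroblast-like cells are low in both panels.

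In endothelial-like cells single GTPases stood above or below their CD3 level. Gbp3 and Iigp1, 2 of the 17 GTPases, were at least 2 times as high as in CD3 cells in both libraries. That share is near the 11.7% of all measured genes that were. Gbp3 had 30 and 15 UMIs there, 3.49 (2.32 to 5.06) and 4.16 (2.31 to 6.93) times the CD3 level. Iigp1 had 28 and 12 UMIs, 3.79 (2.48 to 5.57) and 10.2 (5.13 to 18.3) times. Gbp8, Ifi47 and Igtp were at least 2 times lower. With cells thinned to 1000 UMIs 1 of the 2 higher genes remained past the fold, and no GTPase was at least 2 times lower. Cardiomyocyte markers summed to 324 and 189 CPM in these cells, against 5.62 and 7.62 in CD3 cells, and their part was not tested.

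The summed presentation genes were lower than in CD3 cells in both libraries in 4 of the 6 other gates. In conventional dendritic-like cells they were lower in the anti-PD1 library alone, and in plasmacytoid dendritic-like cells in neither. Their sum stood at 0.662 and 0.687 of the CD3 level in macrophage-like, 0.591 and 0.644 in B-like, 0.527 and 0.623 in endothelial-like and 0.213 and 0.214 in fibroblast-like cells. It stood at 1.00 (0.932 to 1.07) and 1.24 (1.18 to 1.298) in plasmacytoid dendritic-like cells and at 1.13 (1.03 to 1.25) and 0.892 (0.818 to 0.970) in the 3 and 6 conventional dendritic-like cells. In fibroblast-like cells 11 of 12 were at least 2 times lower, all but Tapbp (13.8% of all measured genes were). H2-K1 stood there at 506 and 452 CPM, 0.162 (0.132 to 0.196) and 0.143 (0.118 to 0.171) of the CD3 level. At least 2 times lower were 4 presentation genes in macrophage-like cells, Psme2, Psmb9, Tap1 and H2-K1 (11.7% of all measured genes were). In endothelial-like cells 4 were, Tap1, Psmb8, H2-T23 and H2-K1 (9.22% of all measured genes). In B-like cells 1 of 12 was, Psme2 (5.48% of all measured genes). Irf8 was at least 2 times as high as in CD3 cells in macrophage-like (15.5 and 11.6 times; 9.44% of measured genes were that high) and B-like cells (18.6 and 20.9 times; 3.70%). The dendritic-like gates held too few cells to be counted; in plasmacytoid dendritic-like cells Irf8 had 201 and 300 UMIs, 2748 and 2397 CPM.

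Between the libraries, a difference of the summed GTPases was not detectable at this depth in the larger gates outside CD3 cells. Their ratio was 1.03 (0.763 to 1.399) in macrophage-like, 1.27 (0.734 to 2.31) in B-like, 0.905 (0.740 to 1.10) in endothelial-like and 0.858 (0.514 to 1.44) in fibroblast-like cells. It was 0.584 (0.365 to 0.935) in the plasmacytoid dendritic-like cells, with 39 UMIs in each library. Whether these ratios differ from that of CD3 cells was not tested. A GTPase reached 50 UMIs in endothelial-like cells alone, where 3 did (Gbp2, Gbp7 and Gbp9) and Gbp9, with 62 and 15 UMIs and a ratio of 0.508 (0.269 to 0.904), was past 1.5 times. Of all genes measured, 14.6% were that low in endothelial-like, 15.6% in macrophage-like, 7.83% in B-like and 12.4% in fibroblast-like cells. With at least 50 UMIs, Socs3 was higher in the anti-PD1 library in 3 of the 4 larger gates and Irf1 in 2. Socs3 had 28 and 467 UMIs in macrophage-like cells, 106 and 846 CPM, a ratio of 7.98 (5.45 to 12.1), in a gate where 9.64% of measured genes were higher by 1.5 times (13.2% were in B-like cells, where Socs3 had 3 and 16 UMIs). It had 13 and 110 UMIs in endothelial-like cells, a ratio of 17.8 (9.98 to 34.4), where 7.68% of genes were, and 4 and 56 in fibroblast-like cells, a ratio of 11.3 (4.18 to 42.96), where 12.1% were. Irf1 had 9 and 100 UMIs in macrophage-like cells (5.31, 2.69 to 11.96) and 30 and 96 in endothelial-like cells (6.72, 4.42 to 10.5). With fewer than 50 UMIs, it had 6 and 35 in B-like cells, a ratio of 2.52 (1.05 to 7.33), and 2 and 43 in fibroblast-like cells. In plasmacytoid dendritic-like cells it had 18 and 50 UMIs (1.62, 0.931 to 2.96). The 8 early response genes were also higher in the anti-PD1 library in 3 of the 4 larger gates. Their summed ratio was 2.08 (1.96 to 2.21) in macrophage-like, 7.79 (6.999 to 8.68) in endothelial-like and 5.64 (5.10 to 6.25) in fibroblast-like cells. In B-like cells it was 1.07 (0.968 to 1.19), an interval that includes 1. The 5 heat shock genes stood at 1.61 (1.46 to 1.78), 1.36 (1.199 to 1.54), 1.84 (1.56 to 2.18) and 0.835 (0.709 to 0.987) in the same order. The part of either list in the Socs3 and Irf1 ratios was not tested.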

How the data were processed

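The authors deposited 2 matrices of whole-number UMI counts, 1 for each library and not normalized. Per the file headers, Cell Ranger 7.1.0 wrote them. The submitters' processing notes list mm10 and, among the tools, Seurat 4.4.0 and Cell Ranger 7.2.0, with no role for any. The labels' protocols describe tissue digestion, red cell lysis, dead cell removal and a droplet-based 3′ kit, but no sort, which the series' design text does state. Neither the gene annotation behind the counts nor their use of strand is stated in those sources.

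A barcode was used as a cell if it had 300 genes and 500 UMIs or more and no more than 10% of its UMIs from mitochondrial genes. A lineage was called from at least 3 immune or 4 stromal markers seen; cells with a lineage call and Cd3 UMIs, or with several lineages, stayed outside the gates, as did cells with neither, in all 390 in the anti-IgG and 548 in the anti-PD1 library. Of 107 marker symbols 105 were found. NK receptor and type 17 gates needed at least 2 markers. The gates use no member gene. Scrublet in scanpy 1.11.5 marked 0 doublets in both libraries by its automatic threshold, which is too few to rely on, so doublets were kept and the highest scores were removed as an alternative.

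UMIs were summed in each gate of a library and scaled to 1000000 (CPM). Ratios have exact 95% intervals conditional on the summed UMIs, levels exact Poisson and shares exact Clopper-Pearson intervals; all cover counting error alone, and a gene whose UMIs sit in a handful of cells has a wider true error. A gene with 0 UMIs was set to a floor of 3 counts. Genes with at least 50 summed UMIs were counted, 1.5 times between libraries and 2 times between cell types. A gene counted as higher in a cell type only with more than 3 UMIs there in each library, a rule added after the values had been seen; types with under 20 cells in a library were not counted. The ratio code was tested on simulated data. Software was Python 3.11.15 with scipy 1.17.1, numpy 2.4.6, pandas 2.3.3 and, for plots, matplotlib 3.10.9. Members, lists, gates and rules were chosen with earlier results of these data known. Full values are given for members past 1.5 times, with the most UMIs, or with the highest or lowest ratio of their role; of the pathway list, those past 1.5 times and 3 constitutive proteasome genes, with the rest of that list given as counts. Tap1, Igtp, B2m, Irf1, Ifng and H2-Q7 outside that rule and the single members named by gate, bin or cell type were chosen after their values were seen. The alternatives are listed with the limits.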

Additional observations from a re-analysis of the deposited data

Results flagged for a closer look

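Irgm2, a regulatory immunity-related GTPase gene, went in opposite directions in 2 kinds of T cells. It was lower in the anti-PD1 library in type 17 cells, with a ratio of 0.416 (0.269 to 0.638), and higher in CD4 naive cells, with a ratio of 1.61 (1.12 to 2.34). With 1 library per group the difference between the 2 gates was not tested.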

How the results depend on the processing

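No paired analysis was possible because each group is 1 library. Over 9 alternatives in CD3 cells no presentation gene passed 1.5 times. Measured GTPases lower in the anti-PD1 library were 13 of 14 with cells thinned and 14 of 15 with at least 200 UMIs. They were 15 of 17 without cells of 3 or more type I UMIs and 16 of 17 under the other settings. The median gene was also lower under each setting. Its log2 ratio ranged from -0.12 at the same mix of T gates to -0.09 with cells thinned. At the same mix of T gates the summed ratios were 0.669 for GTPases and 0.985 for presentation genes; without ribosomal and mitochondrial genes in the total the presentation ratio was 0.981; without cells of 3 or more type I UMIs they were 0.708 and 0.988, 1 member (Irf8, 1.51) was at least 1.5 times higher, and Igtp turned to 1.07. With cells thinned, Psmb10 turned to 1.03, Irgm2 stood at 1.34, and 1 GTPase was at least 2 times as high in endothelial-like cells. Unthinned, the GTPase ratio of the outer type I bins was 2.46 and 2.51. The GTPases at least 2 times lower numbered 2 thinned and 9 without ribosomal genes in macrophage-like, 2 thinned and 6 with 1 more marker in B-like and 0 thinned in endothelial-like cells. The presentation genes at least 2 times lower numbered 7 without ribosomal genes in macrophage-like and 1 thinned in endothelial-like cells. Fewer UMIs per gene when thinned leave fewer genes measured; the cause of the other shifts was not tested. Dendritic-like cells, and fibroblast-like cells when thinned or with 1 more marker, were under 20 cells in a library and gave no value. With 20 to 115 cells, differences between the libraries outside CD3 cells are limited by depth.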
